A study of Mus musculus with 4 samples.

Results

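Mast cell proteases and receptors are 10 genes, namely the proteases Mcpt1, Mcpt2, Mcpt4, Mcpt8, Cpa3, Cma1, Tpsb2 and Tpsab1, the IgE receptor chain Fcer1a and the growth factor receptor Kit. They were read from the 12 probe sets that the array's annotation gives to 1 of these genes alone, among 18193 genes read in this way. The genes were chosen by their known place in mast cells and with their signals in these same tumor and normal samples already seen, so those signals are given as a description, with no test. Gene expression was measured in 2 samples of normal ureter and 2 ureter tumors of C57Bl/6 mice aged 6 to 8 weeks, each on 1 Affymetrix mouse genome array, and the study asked what Notch signaling does in urothelial cancer. Per the labels, the mice carried R26rtTA, teto-Cre and Ncstnf/f, that is a conditional allele of nicastrin, a subunit of gamma-secretase, and were 3 weeks old when a doxycycline course of 1 week began. The same text stands on the normal and the tumor samples, and the sources used here give neither the genotype of a sample nor the number of animals behind it. The Rosa26 locus, from which rtTA is made in such mice, is active in most cell types, so the system is not limited to urothelium.

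Mast cells are tissue-resident immune cells that depend on Kit and its ligand and that release granules when antigen crosslinks IgE on the Fc epsilon receptor. Most of the granule protein is protease. In mice, mucosal mast cells, which gather in epithelium during parasite infection and allergic inflammation, are known for the beta-chymases Mcpt1 and Mcpt2. Connective tissue mast cells, which reside in skin, serosa and submucosa, are known for the chymases Mcpt4 and Cma1, the tryptases Tpsb2 and Tpsab1 and carboxypeptidase A3, encoded by Cpa3. Mcpt8 is a granule protease of basophils.

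The deposited values are MAS5 signals on a linear scale, scaled on each array to a trimmed mean of 500.0, and a signal of 54.6 was the limit below which a gene's mean was not tested. Medians over all probe sets other than controls were 106 and 103 for normal ureter and 84.9 and 93.8 for tumor replicates 1 and 2. Across the 13046 genes tested, the arrays of normal ureter correlated at 0.976 and those of tumors at 0.786 (Pearson's r across genes). The Gapdh control, whose 3' to 5' ratio reflects RNA integrity, gave 0.92 and 0.923 for normal ureter against 1.51 and 1.44 for tumor replicates 1 and 2. The Actb control had its higher ratios in normal ureter, at 2.90 and 2.82, with 2.47 and 2.63 in the tumors. The targeted gene Ncstn gave 99.0 and 66.2 in normal ureter and 81.6 and 131 in the tumors with probe set 1418570_at. Its dimmer probe set, 1444532_at, gave 84.8 and 89.6 in normal ureter and 66.3 and 46.2 in the tumors. Where the deleted part lies relative to these probe sets is unknown here, so they check nothing. Of the 15 urothelial markers, Upk1b and Upk3a, which encode proteins of the apical plaque, read 11549 and 19745 and 5987 and 11462 in normal ureter. On tumor replicates 1 and 2 they read 434 and 183 and 69.8 and 52.3, so the defining plaque markers were low in both samples labelled tumor. Some markers of basal and other urothelial cells differed between the tumors. The keratin gene Krt5 and the transcription factor genes Trp63 and Foxa1 read 15779.7, 10167 and 9443 on tumor replicate 1, above both normal samples. On tumor replicate 2 they read 628, 440.3 and 721, below both. They are the 3 of the 15 markers that were highest on tumor replicate 1, and 9 of the 15 were below both normal samples in both tumors. Of the brightest markers, Krt18 read 13581 and 20882 in normal ureter and 3099 and 5390 in the tumors. Krt8 read 11208 and 14846, then 7490 and 11692.5, and Krt7 read 14089 and 23467, then 19322 and 6708. Fat cell transcripts were present in the tissue labelled normal ureter, with Adipoq at 81675 and 84064 there against 9631 and 6.28 in the tumors. The labels do not say that samples of a group came from separate animals beyond calling them biological replicates, so p-values measure only the spread between these samples.

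The proteases of mucosal mast cells were high in 1 of the 2 tumors and at or near the bottom of the scale in the other 3 samples. Mcpt2 read 2.21 and 2.43 in normal ureter, 52197 on tumor replicate 1 and 33.7 on tumor replicate 2. Mcpt1 read 24.9 and 13.8 in normal ureter, 38867 on tumor replicate 1 and 28.7 on tumor replicate 2. In both genes tumor replicate 1 stood far above every other array, and tumor replicate 2 lay slightly above the normal arrays at signals under the limit of the filter. On the scale of log2(signal + 16), on which changes of dim genes are understated, tumor replicate 1 lay above the normal mean by 11.48 for Mcpt2 and 10.12 for Mcpt1. Tumor replicate 2 lay 1.44 and 0.36 above it. In whole tissue, more mast cells and more RNA of a gene per mast cell cannot be told apart.

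**Figure D1:**
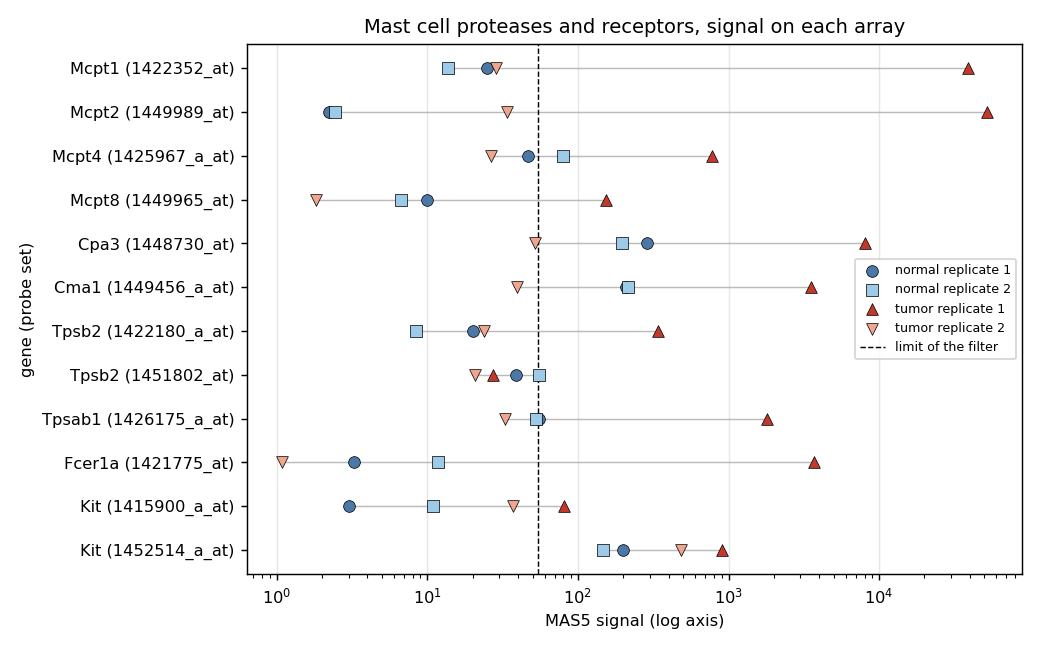
MAS5 signal (log axis) of the 12 probe sets of the mast cell genes, with 1 point per array and a dashed line at 54.6, the limit of the filter. Tumor replicate 1 is the highest array in 11 of the 12, and the exception is the dimmer of the Tpsb2 probe sets.

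The connective tissue proteases showed a different order among the low arrays. Cma1, a chymase, read 209 and 215 in normal ureter, 3529.8 on tumor replicate 1 and 39.2 on tumor replicate 2. Cpa3, the granule carboxypeptidase, read 288 and 196 in normal ureter, 8095 on tumor replicate 1 and 51.7 on tumor replicate 2. Both genes had a signal above the filter limit on both normal arrays, were highest on tumor replicate 1 and were lowest on tumor replicate 2. Tumor replicate 2 differed from the normal mean by -2.05 log2 units for Cma1 and by -1.90 for Cpa3. Mcpt4, the other connective tissue chymase, read 46.5 and 79.9 in normal ureter, 777 on tumor replicate 1 and 26.6 on tumor replicate 2. Its signals of 46.5 and 26.6 lie under the filter limit, so their order is not read. The tumor samples lay on opposite sides of the normal samples for Cma1 and Cpa3.

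The tryptases were read less securely. Tpsab1 read 55.2 and 52.9 in normal ureter, 1807 on tumor replicate 1 and 33.0 on tumor replicate 2. The RefSeq gene table for the C57BL/6J assembly GRCm38.p6 lists Tpsab1 as a transcribed pseudogene. Tpsb2, its neighbour in that assembly, read 20.0 and 8.44 in normal ureter, and 338 and 23.7 on tumor replicates 1 and 2, by probe set 1422180_a_at. Its other probe set, 1451802_at, read 38.5 and 54.8 in normal ureter and 27.2 and 20.8 in the tumors, so the probe sets of Tpsb2 disagreed on tumor replicate 1. Mcpt8, the basophil protease, read 9.87 and 6.69 in normal ureter, 153 on tumor replicate 1 and 1.83 on tumor replicate 2.

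The receptors differed from each other. Fcer1a, the IgE-binding chain of the high-affinity IgE receptor, followed the proteases with 3.28 and 11.9 in normal ureter, 3719.8 on tumor replicate 1 and 1.09 on tumor replicate 2. Kit, the receptor for stem cell factor, read 200.05 and 148 in normal ureter, and 906 and 481 on tumor replicates 1 and 2, by probe set 1452514_a_at. Both tumors were above both normal samples for Kit, by 2.29 and 1.40 log2 units over the normal mean on tumor replicates 1 and 2. Its dimmer probe set, 1415900_a_at, gave the same order with 3.03 and 10.98 in normal ureter and 80.8 and 37.2 in the tumors. Kit is also made by interstitial cells of Cajal, melanocytes and blood progenitors. In the list of markers of such cells, the melanocyte gene Dct read 139 and 185 in normal ureter and 1.71 and 11.6 in the tumors. The melanocyte genes Tyr, Tyrp1 and Mlana read 3.47 to 53.1 in normal ureter. On tumor replicates 1 and 2 they read 2.07 to 16.02 and 2.28 to 43.3. Pmel read 43.0 and 100 in normal ureter and 58.9 and 43.7 in the tumors. Ano1, a chloride channel of interstitial cells and also of epithelia, read 9931 and 12793 in normal ureter and 8880.3 and 1871 in the tumors. Of the markers of blood progenitors, the receptor gene Flt3 read 23.5 and 3.05 in normal ureter and 123 and 25.5 in the tumors. Cd34, which endothelium also makes, read 2276 and 2041 in normal ureter, 3400.2 on tumor replicate 1 and 1541 on tumor replicate 2. The part of such cells in the Kit signal was not tested.

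Over the 10 genes, tumor replicate 1 was at least 4-fold above tumor replicate 2 in 9, Kit being the exception, where 3.49% of all genes tested were. Tumor replicate 1 was at least 4-fold above the higher normal array in 10 of 10, against 4.02% of all genes tested. Tumor replicate 2 was at least 4-fold above it in 0 of 10, against 2.96%. These folds are on the log2(signal + 16) scale and compare single arrays, so they have no replicate check. The difference between the tumor arrays ran from 0.89 for Kit to 10.04 for Mcpt2, with a median of 5.61 beside 0.02 over all genes tested. Both tumors exceeded both normal samples in 4 of 10, namely Mcpt1, Mcpt2, Tpsb2 and Kit, against 29.4% of all genes tested. Tumor replicate 2 lay below both normal arrays in 6 of 10, against 40.5% of all genes tested. These were Mcpt4, Mcpt8, Cpa3, Cma1, Tpsab1 and Fcer1a. Only Cpa3 and Cma1 of them had both normal arrays above the filter limit, so that count is not read as a result.

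**Figure D2:**
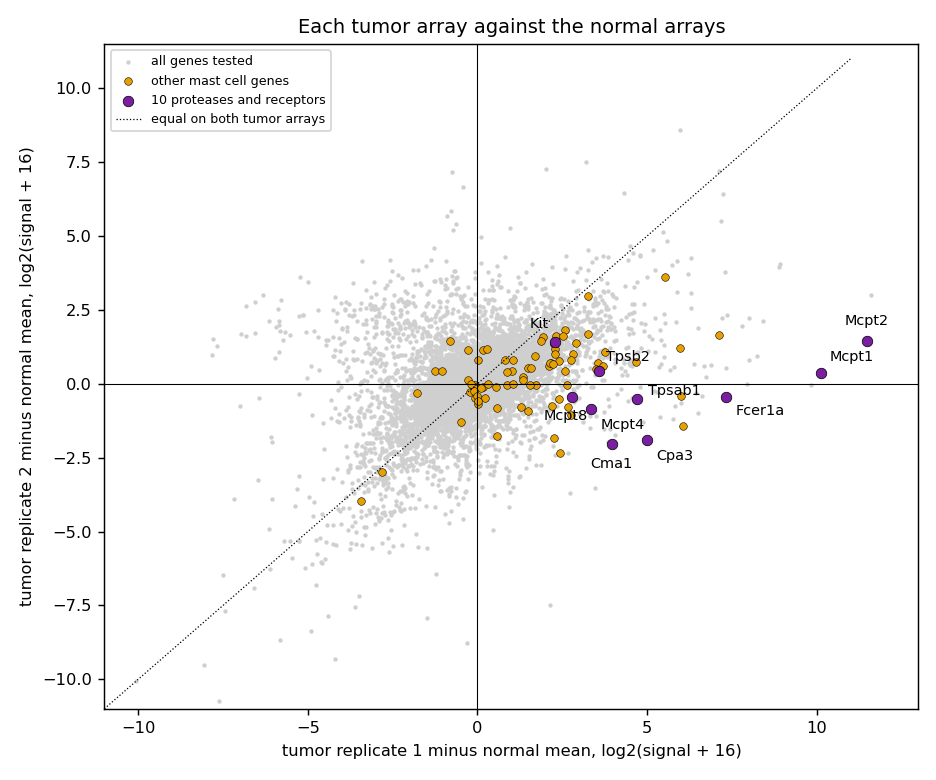
Difference of tumor replicate 1 (x axis) and tumor replicate 2 (y axis) from the mean of the normal arrays, in units of log2(signal + 16), for the 13046 genes tested (grey), the 79 measured other mast cell genes (orange) and the 10 proteases and receptors (purple). The proteases and Fcer1a lie to the right of the dotted line of equal difference, with Mcpt2 at 11.48 and 1.44 and Cma1 at -2.05 on the y axis, while Kit lies nearer that line at 2.29 and 1.40.

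Of the 10 genes 8 were tested, since Mcpt8 and Tpsb2 had means under the filter limit, and some of the 8 passed it through tumor replicate 1 alone. With limma, 1 of the 8, Kit, had an unadjusted p under 0.05, beside 21.5% of all genes tested. The number that passed an adjusted p of 0.05 was 0 of 8, beside 1.43% of all genes tested. Without tumor replicate 2 the count was 8 of 8, where 42.2% of all genes tested passed, and without tumor replicate 1 it was 3 of 8, where 32.9% did. Nothing is read from these counts, because the genes were chosen with this contrast in view. The last 2 fits leave 1 tumor array, which is assumed to vary like the normal ones.

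Sequences upstream of the starts of the genes are shown because GATA factors are known regulators of mast cell genes. All 10 genes were highest on tumor replicate 1, so that pattern did not decide which windows are printed. RefSeq promoter windows of GRCm38.p6 were found for 7 of the 10 genes, and none was used for Mcpt2, Tpsb2 and Tpsab1. Each line gives the 250 bases before the start, 5′ to 3′ along the gene, and capitals mark a GATA motif, that is AGATAA or AGATAG or TGATAA or TGATAG on either strand. The 4 windows were picked from the 5 that held a motif, and those of Cma1, Mcpt8 and Kit are not printed.
Mcpt1, chr14:56017714-56017963, plus strand: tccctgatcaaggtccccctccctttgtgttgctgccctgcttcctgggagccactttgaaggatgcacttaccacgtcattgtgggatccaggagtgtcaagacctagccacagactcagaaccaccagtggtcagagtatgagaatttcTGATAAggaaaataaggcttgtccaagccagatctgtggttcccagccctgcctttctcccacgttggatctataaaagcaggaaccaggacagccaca
Mcpt4, chr14:56062311-56062560, minus strand: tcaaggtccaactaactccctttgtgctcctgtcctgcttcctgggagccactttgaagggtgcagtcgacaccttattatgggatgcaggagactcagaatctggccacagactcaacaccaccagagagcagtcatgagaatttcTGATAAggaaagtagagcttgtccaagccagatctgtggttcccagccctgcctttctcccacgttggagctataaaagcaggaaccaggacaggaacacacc
Cpa3, chr3:20242182-20242431, minus strand: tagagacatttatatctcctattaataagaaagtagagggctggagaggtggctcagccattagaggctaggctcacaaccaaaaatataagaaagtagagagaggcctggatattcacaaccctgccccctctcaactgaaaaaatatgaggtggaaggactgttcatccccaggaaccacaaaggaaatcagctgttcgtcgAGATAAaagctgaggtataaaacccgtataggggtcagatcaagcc
Fcer1a, chr1:173227230-173227479, minus strand: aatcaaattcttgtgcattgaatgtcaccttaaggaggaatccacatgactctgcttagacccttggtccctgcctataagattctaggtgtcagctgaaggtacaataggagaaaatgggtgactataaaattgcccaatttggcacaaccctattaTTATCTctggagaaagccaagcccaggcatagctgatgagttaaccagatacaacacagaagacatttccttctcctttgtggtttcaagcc

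The Mcpt1 and Mcpt4 windows each held TGATAA, 99 to 94 and 103 to 98 bases before the start, and were identical at 213 of 260 alignment columns, or 81.9%. The other pairs among Mcpt1, Mcpt4, Mcpt8 and Cma1 were identical at 51.3% to 54.8% of columns. Cpa3 held AGATAA 46 to 41 bases before the start, and Fcer1a and Cma1 held AGATAA and AGATAG on the opposite strand. In all, 5 of the 7 genes with a window held a motif, and the Mcpt8 and Kit windows held none of these letters. Of all 32851 RefSeq windows of this length 26.5% held a motif. A match of letters is a description and does not show a bound site.

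The other genes of mast cells were taken from lists of 89 genes, of which 79 were measured and 58 tested, and these lists were also written with earlier results of these data known. With limma at an adjusted p of 0.05, 0 rose, 2 fell and 56 did not pass, where 1.43% of all genes tested passed. An unadjusted p under 0.05 was reached by 15 (25.9%), beside 21.5% of all genes tested. The median difference between tumor and normal was 0.80, beside 0.03 over all genes tested, and was 1.63 on tumor replicate 1 and 0.43 on tumor replicate 2. Of the 58 genes, 15 (25.9%) were at least 4-fold higher on tumor replicate 1 than on tumor replicate 2, where 3.49% of all genes tested were. Genes named below with no difference or test had means under the filter limit or lay outside the rule for named genes, and were picked with their values known.

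The genes that complete the IgE receptor fell into 2 patterns. Ms4a2, the beta chain known from mast cells and basophils, read 10.6 and 5.82 in normal ureter, 1536 on tumor replicate 1 and 2.25 on tumor replicate 2, as Fcer1a did. Fcer1g, the gamma chain that macrophages and other myeloid cells share, read 885 and 719 in normal ureter, 4035 on tumor replicate 1 and 2480.3 on tumor replicate 2. The Fcer1g difference was 1.97 (limma adjusted p = 0.0807, SE 0.31, n = 2 in each group). Among the 10 tested partners and signaling genes 0 passed, where 1.43% of all genes tested did. In 9 of the 10 both tumors exceeded both normal samples, against 29.4% of all genes tested. The adaptor Lat2 and the kinase Btk had differences of 2.20 and 2.46 (limma adjusted p = 0.103 and 0.165), and that of Lat2 was 0.90 with the mean of its probe sets. Plcg2, the phospholipase downstream of Btk, had a difference of 1.80 (limma adjusted p = 0.13), and on tumor replicate 2 it read 1195 beside 558 and 380.4 in normal ureter. Macrophage markers were mostly higher in both tumors too. Of 9 markers measured, 8 lay above both normal samples in both tumors, against the same 29.4% of all genes tested. The summed signal of the 9 was 11463 and 9702 in normal ureter against 46930 and 36757 in the tumors. Csf1r, a macrophage growth factor receptor, was not near 0 on any array, with 4415 and 3949 in normal ureter and 17035 and 15523 in the tumors. The part of macrophages in the signal of the shared genes was not tested.

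Genes for granule amines and proteoglycan included Slc18a2, with the order of Cma1 and Cpa3. Hdc, which makes histamine, read 31.0 and 91.6 in normal ureter, 321 on tumor replicate 1 and 4.06 on tumor replicate 2. Slc18a2, which loads amines into granules, read 58.5 and 85.9 in normal ureter, 573 on tumor replicate 1 and 26.2 on tumor replicate 2. In both genes tumor replicate 1 was the highest array, and for Slc18a2 tumor replicate 2 was the lowest. The Hdc signals of 31.0 and 4.06 lie under the filter limit, so their order is not read. Tph1, the enzyme of serotonin synthesis in mast cells, read 3.16 and 1.28 in normal ureter, 2505 on tumor replicate 1 and 41.4 on tumor replicate 2, the order of Mcpt2. Its difference was 4.39 (limma adjusted p = 0.293, SE 1.94, n = 2 in each group), and 6.73 with a pseudocount of 1. Srgn, the core protein of granule proteoglycan in many blood cells, read 5170.0 and 4047 in normal ureter, and 27406 and 6123 on tumor replicates 1 and 2, with a difference of 1.499 (limma adjusted p = 0.352). The sulfotransferase Ndst2 and the chondroitin enzyme Csgalnact1 had differences of 0.63 and 1.32 (limma adjusted p = 0.291 and 0.165). Of the 9 genes of this list only Maob passed the test, where 1.43% of all genes tested did. Maob breaks down amines and is made in many tissues. It fell by 3.70 on the log2 scale (limma adjusted p = 0.0402, SE 0.27, n = 2 in each group), from 3870.4 and 3167 in normal ureter to 308 and 209 in the tumors. That call ended without the intensity trend (adjusted p = 0.0603), and with either normal array left out 0 of all genes passed limma (884 without normal replicate 1 and 889 without normal replicate 2 had an unadjusted p under 0.05).

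**Figure D3:**
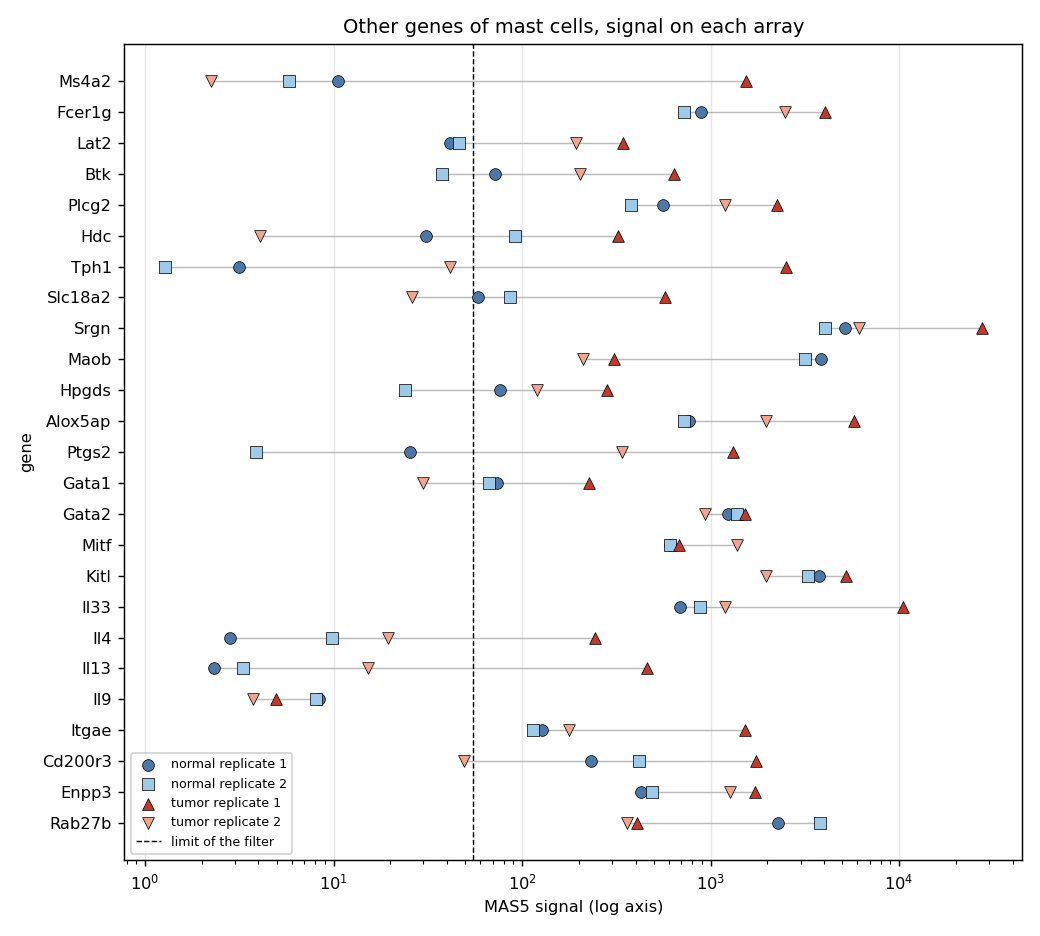
MAS5 signal (log axis) of 25 other genes of mast cells, with 1 point per array and a dashed line at the filter limit of 54.6, in the order of the IgE receptor, granule, lipid mediator, transcription factor, growth factor and surface genes. Ms4a2, Tph1 and Il13 are high on tumor replicate 1 alone, Fcer1g and the brightest probe set of Enpp3 are higher on both tumor arrays, and Maob and Rab27b are lower on both.

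Enzymes of lipid mediators and surface genes gave 0 genes that rose and 1 that fell, where 1.43% of all genes tested passed in either direction. Ptgs2, an inducible prostaglandin synthase of many cells, had a difference of 4.58 (limma adjusted p = 0.0958, SE 0.82) that was 3.03 with the mean of its probe sets, and Alox5ap, which serves leukotriene synthesis, had one of 2.14 (limma adjusted p = 0.158). Hpgds, the prostaglandin D synthase of mast cells, and Ltc4s, the leukotriene C synthase, had differences of 1.73 and -0.89 (limma adjusted p = 0.247 and 0.241). Enpp3, a surface marker of mast cells and basophils also made by epithelia, read 427 and 489 in normal ureter, 1712 on tumor replicate 1 and 1267 on tumor replicate 2. Its difference was 1.65 (limma adjusted p = 0.0742, SE 0.25, n = 2 in each group). With the mean of its probe sets it was 0.27 (limma adjusted p = 0.677). Cd33, Slc7a5 and Ptger3 had differences of 2.06, 3.11 and 0.73 (limma adjusted p = 0.128, 0.166 and 0.327). Rab27b, which moves secretory granules and is also made in umbrella cells of the urothelium, fell by 2.90 on the log2 scale (limma adjusted p = 0.0491, SE 0.32). It read 2292 and 3829.7 in normal ureter and 408 and 362 in the tumors, beside the lower Upk1b and Upk3a. Its call ended with a pseudocount of 1 (adjusted p = 0.0507), with no filter (0.0577), with the mean of its probe sets (0.134), without the intensity trend (0.0671) and without either normal array.

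Of the 8 transcription factors of mast cells 0 passed the test, where 1.43% of all genes tested did. Gata2, a regulator of mast cells, basophils and endothelium, read 1238 and 1384 in normal ureter, 1531 on tumor replicate 1 and 937 on tumor replicate 2. Gata1, its paralog in mast cells and red cell precursors, read 74.0 and 67.0 in normal ureter, 225 on tumor replicate 1 and 29.8 on tumor replicate 2. Mitf, Tal1, Runx1 and Bhlhe40 had differences of 0.65, 0.76, 1.42 and 1.64 (limma adjusted p = 0.412, 0.531, 0.263 and 0.176). Mitf, which is needed for mast cell development, was highest on tumor replicate 2 at 1373, beside 678 on tumor replicate 1, and its difference was 1.04 with the mean of its probe sets.

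Growth factors, cytokines and homing receptors of mast cells included several that were high on tumor replicate 1. Kitl, the ligand of Kit, read 3751 and 3282 in normal ureter, 5244 on tumor replicate 1 and 1974 on tumor replicate 2, so the tumors lay on opposite sides of the normal samples. Its difference was -0.12 (limma adjusted p = 0.917, SE 0.52, n = 2 in each group), and 0.31 with the mean of its probe sets. Il33, an epithelial alarmin that activates mast cells, read 692 and 882 in normal ureter, and 10454 and 1187 on tumor replicates 1 and 2, with a difference of 2.15 (limma adjusted p = 0.346). Il13, a type 2 cytokine, read 2.33 and 3.33 in normal ureter, 459 on tumor replicate 1 and 15.1 on tumor replicate 2. Il4 read 2.81 and 9.83 in normal ureter, 243 on tumor replicate 1 and 19.5 on tumor replicate 2. Il9, which expands mucosal mast cells, was dim on each array, at 8.35 and 8.05 in normal ureter and 4.98 and 3.74 in the tumors. Itgae, the integrin by which mucosal mast cells and intraepithelial lymphocytes bind epithelium, read 128 and 114 in normal ureter, 1531 on tumor replicate 1 and 178 on tumor replicate 2. The receptor chains Csf2rb and Il4ra and the integrin Itga4 had differences of 2.42, 1.78 and 1.06 (limma adjusted p = 0.258, 0.263 and 0.272). Of the 11 tested genes of this list 0 passed, where 1.43% of all genes tested did. The Itga4 difference was 0.66 with the mean of its probe sets.

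Genes beside the proteases in the genome were mostly under the filter limit, which limits a comparison with the proteases. In GRCm38.p6, Mcpt1, Mcpt2, Mcpt4, Mcpt8 and Cma1 lie on chromosome 14 in a cluster with Ctsg and the granzymes Gzmb to Gzmg and Gzmn. Of the 8 other genes of this cluster measured, 1 was tested. That gene alone was at least 4-fold above the higher normal array on tumor replicate 1, against 4.02% of all genes tested. This was Gzmb, a protease of cytotoxic lymphocytes, at 39.7 and 55.5 in normal ureter, 4168 on tumor replicate 1 and 7.45 on tumor replicate 2 (difference 2.31, limma adjusted p = 0.654). Ctsg, between Mcpt8 and the granzymes, read 1.28 and 5.84 in normal ureter and 57.7 and 42.4 in the tumors. Gzmc, Gzmd, Gzme, Gzmf, Gzmg and Gzmn read at most 41.5 on each array. Among the tryptase neighbours Tpsg1 read 2.19 and 7.80 in normal ureter, 131 on tumor replicate 1 and 25.4 on tumor replicate 2. On tumor replicate 1 it was at least 4-fold above the higher normal array. Prss22, Prss27 and Prss29, serine proteases of the wider family, had differences of 0.72, -0.60 and -1.05 (limma adjusted p = 0.743, 0.741 and 0.397). The Prss29 difference was -0.44 with the mean of its probe sets. Prss22 and Prss27 were at least 4-fold higher on tumor replicate 1 than on tumor replicate 2, and Prss29 was not. The share of all genes tested past that fold was 3.49%. Prss22 read 383 and 668 in normal ureter and 2400 and 292 in the tumors, and Prss27 read 70.7 and 102, then 134 and 14.0.

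Marker lists of other immune cells also had their highest sums on tumor replicate 1, so the mast cell genes were not alone in that pattern. The summed signal of the 8 proteases was 655 and 574 in normal ureter, 105763 on tumor replicate 1 and 238 on tumor replicate 2. The neutrophil list summed to 459.8 and 429 in normal ureter, 24544 on tumor replicate 1 and 1602 on tumor replicate 2, and in 6 of its 9 measured genes tumor replicate 1 exceeded tumor replicate 2 at least 4-fold. The eosinophil list summed to 109 and 96.5, then 5138 and 304, with 3 of 5 genes past that fold, including Epx, the eosinophil peroxidase, at 834 and 5.35 on tumor replicates 1 and 2. The list of T and NK cells summed to 1059 and 988, then 21610 and 836, with 3 of 13 genes past that fold, and Gzma and Gzmb made up most of its sum on tumor replicate 1. Basophil markers summed to 323 and 530.1, then 2293 and 117, with 3 of 4 measured genes, Mcpt8 among them, past that fold. Cd200r3, a receptor of basophils and mast cells, read 232 and 415 in normal ureter and 1750 and 49.0 in the tumors. Of all genes tested 3.49% were past that fold, and these lists include dim genes that were not tested. Ms4a3 of the basophil list, Cd8a of the T and NK cell list and Elane of the neutrophil list were below both normal samples in both tumors. Plasma cell and macrophage lists had 0 genes past that fold and had higher sums in both tumors. Both tumors exceeded both normal samples in 4 of 6 plasma cell genes and 8 of 9 macrophage genes, against 29.4% of all genes tested. Intestinal epithelium markers, listed because mucosal mast cells are abundant in gut, were mixed. Cdx1, Cdx2, Fabp2 and Muc2, picked with their values known, read 2.999, 10.04, 7.13 and 6.57 on tumor replicate 1. Vil1 read 159 and 231 in normal ureter, 33.0 on tumor replicate 1 and 1418 on tumor replicate 2. Lgr5 read 96.7 and 91.6 in normal ureter and 62.7 and 147 in the tumors. Of the 11 genes of that list, Reg3g, an antimicrobial lectin of gut epithelium, read 12.6 and 14.5 in normal ureter, 6589.9 on tumor replicate 1 and 98.9 on tumor replicate 2. The whole list summed to 440.6 and 440.1 in normal ureter, then 6840.01 and 1795. The part of these cell types in the mast cell signals was not tested.

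**Figure D4:**
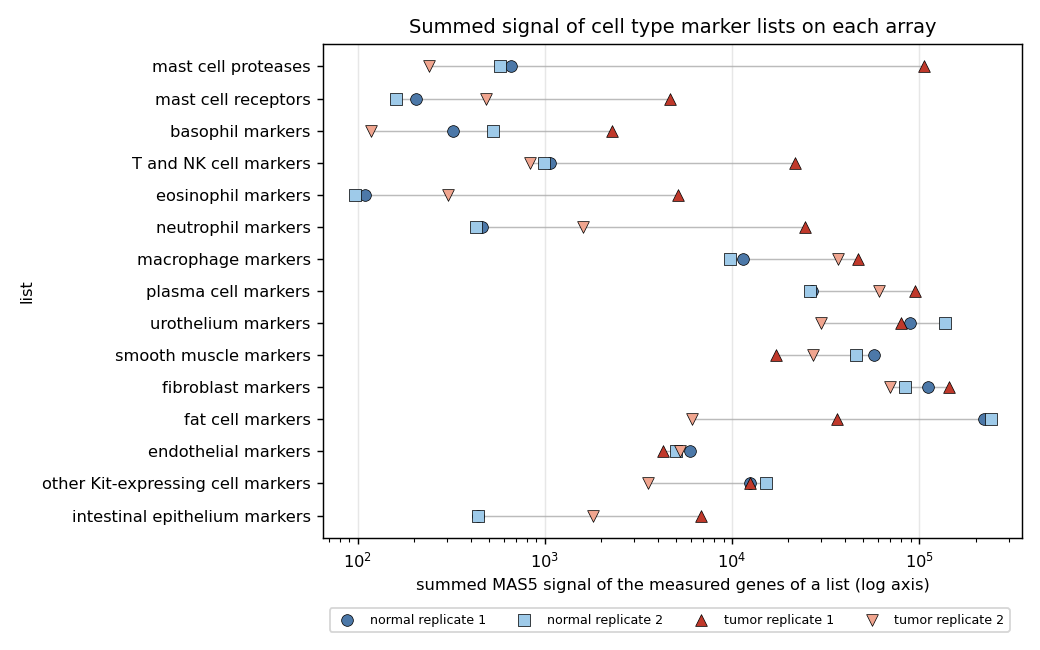
Summed MAS5 signal (log axis) of the measured genes of each cell type list, with 1 point per array, where a list's sum follows its brightest genes. The protease sum spans 238 to 105763 with tumor replicate 1 on top, the macrophage and plasma cell sums are higher on both tumor arrays, and the fat cell sum is lower on both.

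The genes whose pattern was most like that of the tested proteases and receptors included genes known from epithelium, eosinophils and lymphocytes. Likeness was Pearson's r over the 4 arrays with the mean of the 8 tested genes, and 183 of the other genes (1.4%) had an r of at least 0.99. Such a value is easily reached with 4 arrays of which 1 stands apart, so the genes are named as a description only. Ranked by the distance of tumor replicate 1 from the mean of the other 3 arrays, they were Clca1, Pla2g4c, Gzma, Ear3, Krt6a, Krt13, Ang3, 2210407C18Rik, Clca2 and Fer1l6, at 9.85 down to 5.28 log2 units. Clca1, a secreted protein of goblet cells, read 27.9 and 1.49 in normal ureter, 25377 on tumor replicate 1 and 11.1 on tumor replicate 2 (r = 0.993). Gzma read 161 and 147 in normal ureter, 15262 on tumor replicate 1 and 69.4 on tumor replicate 2 (r = 0.996). The keratins Krt6a and Krt13, made in stratified epithelium, read 8342 and 2288 on tumor replicate 1 and 76.2 and 18.1 on tumor replicate 2 (r = 0.994 and 0.99). Within the 10 genes themselves, r with that mean was 0.773 for Kit, 0.941 for Cma1, 0.964 for Cpa3 and 0.999 for Tpsab1, each of which entered the mean.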

How the data were processed

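RNA of 2 normal ureter samples and 2 ureter tumors was measured on 1-colour Affymetrix arrays. The authors deposited 1 linear intensity value for every probe set. The submitters' processing notes name MAS5, and its version, its detection calls and any filter are unknown here. The intensity values had a mean of 500.0 on each array after trimming 2% at each end, so each signal is relative to the rest of its array. Of 45101 probe sets, 64 controls were left out. The platform annotation gave 34945 probe sets 1 gene symbol, of which 34741 were matched to a RefSeq gene and took the symbol used there. It gave 932 several symbols and 9160 none, and those with several or none were not named.

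Values were transformed as log2(signal + 16). Each gene was read from its probe set with the highest mean on that scale, and the 13046 genes at or above the 40th percentile, a signal of 54.6, were tested across all genes with limma (version 3.58.1, R version 4.3.3), an intensity trend, Benjamini-Hochberg adjustment and a threshold of 0.05, two-sided. There were 2 residual and 2.11 prior degrees of freedom. An exact permutation test of 2 against 2 cannot go below p = 0.333 and was not run. The fit was tested on simulated data. Named genes are the 10 genes with all their probe sets, from each list of other mast cell genes up to 4 tested genes with the smallest unadjusted p and the one with the highest mean, from each marker list up to 3 tested genes with the highest mean, of which those bearing on a result are printed, and the 10 most like genes by the rule in the text. The members and lists were chosen with earlier results of these data known. Alternatives were pseudocounts of 1 and 64, quantile normalization, median centring, no filter or the 60th percentile, the mean of probe sets, every probe set, no trend, a robust prior, the replicate number as a block and leaving out each array. Deviations of same-numbered samples from their group means correlated at 0.04 across genes, so the numbers were not taken to pair samples. Figures used matplotlib 3.10.9.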

Additional observations from a re-analysis of the deposited data

How the results depend on the processing

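The number of all genes past the limma test was 187. It was 2 without the intensity trend, 104 with the mean of probe sets and 357 with every probe set, and ran from 0 to 5502 when 1 array was left out, with 0 without either normal array, 4298 without tumor replicate 1 and 5502 without tumor replicate 2. With the replicate block it was 0, with 2253 genes at an unadjusted p under 0.05, although nothing in the labels pairs the samples. The 2 other mast cell genes called, Maob and Rab27b, became 1 with a pseudocount of 1, with no filter or with the mean of probe sets, 0 without the trend or with the replicate block, and 0 to 44 with 1 array left out. The number of proteases and receptors called stayed at 0 under the settings that kept all arrays and ran from 0 to 8 with 1 left out. Of these, 7 of 8 tested were at least 4-fold higher on tumor replicate 1 than on tumor replicate 2, which became 3 of 4 with the filter at the 60th percentile, where fewer genes were tested, and 9 of 10 with no filter. Without tumor replicate 1 the differences of Mcpt4, Cpa3, Cma1, Tpsab1 and Fcer1a turned to -0.86, -1.90, -2.05, -0.52 and -0.44. The difference of Kitl was -0.82 without tumor replicate 1 and turned to 0.58 without tumor replicate 2, each with 1 tumor array left. With 2 arrays per group, signals under the filter limit of 54.6 have no order that can be relied on, and the deposited table gives no detection calls, so absence of a transcript was not shown for any gene.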

Other observations

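The probe sets of the tryptase neighbours Tpsab1 and Tpsb2 differed on tumor replicate 1. Tpsab1, a transcribed pseudogene in the C57BL/6J annotation, read 1807 there, beside 55.2 and 52.9 in normal ureter. The Tpsb2 probe sets read 338 and 27.2 on that array. The labels give C57Bl/6 as the background of each sample, and the sequences of the probes were not used here.

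Some mast cell genes with a signal in normal ureter were lower in tumor replicate 2 and others were higher. Cma1, Cpa3, Slc18a2 and Cd200r3 lay below the normal mean there by differences of -2.05, -1.90, -1.05 and -2.33 log2 units. These genes were picked after their values were seen, and 40.5% of all genes tested lay below both normal arrays on that array. Kit, Fcer1g, Enpp3 and Mitf, at 481, 2480.3, 1267 and 1373 there, lay above both normal arrays.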
